A study of Mus musculus with 8 samples.

Results

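Interferon-stimulated genes are the genes that cells switch on after an interferon binds its receptor. Here 35 of them, chemokines left out, were followed through bulk RNA sequencing of mouse peritoneal tumours. The members were the entries of the deposited count table whose gene symbol stood on a fixed list. All 35 symbols were found among the 35275 entries of the table, and all 35 passed the filter on low counts, which left 15412 genes.

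The tumours arose in conditional mice given an adenovirus carrying Cre recombinase by peritoneal injection. Every tumour carried floxed Nf2 and floxed Cdkn2a, described as deleted in all 8, so the controls lack these tumour suppressors too. The wild-type group (tumours 19, 20 and 127) was Pak2 wt, and the primary Pak2-null group (tumours 13, 14A, 59 and 61) was Pak2 f/f, described as Pak2 -/-. Tumour 14B, a secondary tumour, carried the same Pak2 label, and the labels do not say whether 14A and 14B, which share a number, came from 1 mouse. The virus acts on whichever peritoneal cells it enters, and the tumours were ground whole, so host cells contribute RNA. Age and the animal of origin are not given for any tumour, and p-values here therefore measure the spread between tumours, which may be partly technical.

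Type I and type III interferons signal through receptor-bound JAK kinases to a complex that includes STAT2 and IRF9 and binds a DNA element called the interferon-stimulated response element (ISRE). Interferon gamma, made mainly by T cells and natural killer cells, acts on genes that carry the gamma-activated sequence (GAS). The products detect foreign nucleic acid, block viral replication, or attack the vacuoles of intracellular microbes, and some amplify the response itself. In tumours the same genes report both signalling inside tumour cells and the presence of leukocytes. In bulk tissue, fewer cells of a type and less RNA per cell cannot be told apart.

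The promoters are shown first, since many of the genes share these elements. RefSeq windows on GRCm38.p6, from 250 bases before to 50 bases after a gene's start, were matched for 26 of the 35 members. The unmatched members are Dhx58, Gbp4, Gbp6, Mx1, Mx2, Oas2, Parp14, Usp18 and Zbp1. The ISRE was searched as GAAA, any 2 bases, then GAAA again, and the GAS as TTCNNNGAA, on both strands, with overlapping matches counted separately. An ISRE match was present in 17 of 26 members (65.4%), against 3.99% of 27025 genes with a window. A GAS match was present in 9 of 26 (34.6%), against 9.55% of those genes. The stretches below are the 120 bases just before the start, written 5′ to 3′ along the gene, with matches in capitals and adjoining matches run together. Isg15 (chr4:156200819-156200938, minus strand), Ifit1 (chr19:34640769-34640888, plus) and Oas1a (chr5:120907526-120907645, minus) show the ISRE of antiviral effectors. Gbp2 (chr3:142620543-142620662, plus), Gbp7 (chr3:142530216-142530335, plus), Igtp (chr11:58199436-58199555, plus) and Irgm2 (chr11:58214857-58214976, plus) are the GTPase genes. Irf1 (chr11:53769894-53770013, plus) has a GAS alone. Xaf1 (chr11:72301509-72301628, plus) and Ifi44 (chr3:151749911-151750030, minus) are the members whose tumour groups did not overlap, and neither window held a match.
Isg15: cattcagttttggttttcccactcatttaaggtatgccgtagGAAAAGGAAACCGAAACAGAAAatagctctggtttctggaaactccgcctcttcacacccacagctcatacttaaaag
Ifit1: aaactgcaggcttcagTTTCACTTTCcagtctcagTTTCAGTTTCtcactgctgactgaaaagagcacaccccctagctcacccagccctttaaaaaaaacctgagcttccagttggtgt
Oas1a: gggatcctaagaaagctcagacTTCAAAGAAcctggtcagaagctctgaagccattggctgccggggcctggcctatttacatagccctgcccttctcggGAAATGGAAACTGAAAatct
Gbp2: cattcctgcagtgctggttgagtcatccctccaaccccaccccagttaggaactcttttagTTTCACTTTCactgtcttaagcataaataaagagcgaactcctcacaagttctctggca
Gbp7: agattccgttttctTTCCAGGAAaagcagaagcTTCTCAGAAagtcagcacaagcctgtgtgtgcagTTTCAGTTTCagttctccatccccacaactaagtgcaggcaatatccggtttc
Igtp: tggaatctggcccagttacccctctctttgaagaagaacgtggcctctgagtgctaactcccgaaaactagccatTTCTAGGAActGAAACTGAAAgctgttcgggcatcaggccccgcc
Irgm2: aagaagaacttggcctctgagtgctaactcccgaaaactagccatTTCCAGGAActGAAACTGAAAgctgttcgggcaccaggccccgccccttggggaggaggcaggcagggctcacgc
Irf1: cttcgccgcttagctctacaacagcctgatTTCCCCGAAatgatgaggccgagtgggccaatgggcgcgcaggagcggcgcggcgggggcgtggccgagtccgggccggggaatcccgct
Xaf1: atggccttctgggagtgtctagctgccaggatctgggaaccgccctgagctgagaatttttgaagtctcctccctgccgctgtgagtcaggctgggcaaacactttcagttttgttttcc
Ifi44: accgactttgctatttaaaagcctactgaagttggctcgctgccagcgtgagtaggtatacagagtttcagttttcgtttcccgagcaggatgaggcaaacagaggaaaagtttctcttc
Isg15 had 3 overlapping ISRE matches and Ifit1 had 2 separate ones. Gbp7 had 1 ISRE and 2 GAS matches. Igtp and Irgm2 each carried a GAS followed within a few bases by an ISRE. Their counted entries overlap on chromosome 11 (58199556 to 58207591 and 58199618 to 58222779). The Irgm2 window, from 58214727, lies inside the Irgm2 entry and not at its start. Both elements were found in 6 members (Bst2, Gbp5, Gbp7, Igtp, Irgm2 and Oas1a). Counted by window, not by gene, that is 20.0% of 30 member windows, against 0.454% of 32851 windows. Neither was found in 6 members (Ifi44, Irf7, Irf9, Oasl1, Oasl2 and Xaf1). A match is a run of letters and not a proven site, and the absence of a match says only that these letters are not in this window.

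Some facts of the libraries touch the values below. Total counts ran from 13469851 to 20402401 per tumour. A floor of 3 counts was taken as an approximate upper bound for a count of 0. It corresponds to 0.139 to 0.193 CPM (counts scaled to library size, comparable between tumours) in the primary tumours and 0.311 CPM in 14B. Pak2 stood at 90.1 to 128 CPM in wild-type tumours and at 131 to 238 CPM in the 4 primaries with the Pak2-null label. Its RNA was thus not lower under that label, and the groups are called by their labels. Counts per gene cannot show whether the floxed exons were lost, so these values do not say whether Pak2 was deleted. Tumours 14A and 14B stood apart by exocrine pancreas markers (21426 and 160680 CPM summed over 6 genes, at most 41.3 elsewhere) and pan-leukocyte markers (6316 and 5719 CPM over 5 genes, at most 933 elsewhere). Skeletal muscle markers summed to 2503 to 28520 CPM in wild-type tumours and 12.1 to 705 CPM in labelled Pak2-null primary tumours. Xist, transcribed from the inactive X chromosome, reached 151, 459 and 26.6 CPM in wild-type tumours 19, 20 and 127 and at most 1.33 CPM in the others. The Y-linked Ddx3y reached 1.62, 1.24 and 116 CPM and at least 84.2 CPM in the same order. Wild-type tumours 19 and 20 thus had high Xist with low Ddx3y, and all labelled Pak2-null tumours the reverse. Sex, as read from this RNA, is therefore partly confounded with the Pak2 label for every member. Of 14 mesothelial markers 12 were tested, and they summed to 143 to 448 CPM in wild-type and 187 to 470 CPM in labelled Pak2-null primary tumours, with Calb2 and Muc16 at or near 0.

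Across the 35 genes the 2 genotype groups were not separated, and the clearest pattern lay among the tumours labelled Pak2-null. No member rose or fell between the 4 primary tumours labelled Pak2-null and the 3 wild-type tumours in the quasi-likelihood test of edgeR, with p-values adjusted by Benjamini-Hochberg and held to 0.05 (0 of 35, against 0.0714% of all tested genes, with adjusted p from 0.117 to 0.997). DESeq2 passed 1 member, Xaf1, lower in the labelled Pak2-null tumours, where it called 7.71% of all genes (5.63% lower and 2.08% higher) and gave 2 members no adjusted p. Limma-voom passed 0 (0.162% of all genes) and limma-voom with quality weights passed 1, again Xaf1 (6.16%). At an unadjusted p below 0.05 in edgeR, 2 members were lower (5.71%, background 8.55%) and 0 were higher (background 4.39%). Those 2, Xaf1 and Ifi44, were also the members whose groups did not overlap, both lower in the labelled Pak2-null tumours (5.71%, background 8.93%), while 0 were higher without overlap (background 5.07%). The log2 fold change, labelled Pak2-null minus wild-type, was above 0 for 16 members and below 0 for 19, against 54.5% and 45.5% of all genes. Its median was -0.10 over the members and 0.06 over all genes. The shares that passed a threshold or did not overlap are near or below those of the whole table. The share with a log2 fold change below 0 (54.3%) was somewhat above it.

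**Figure D1:**
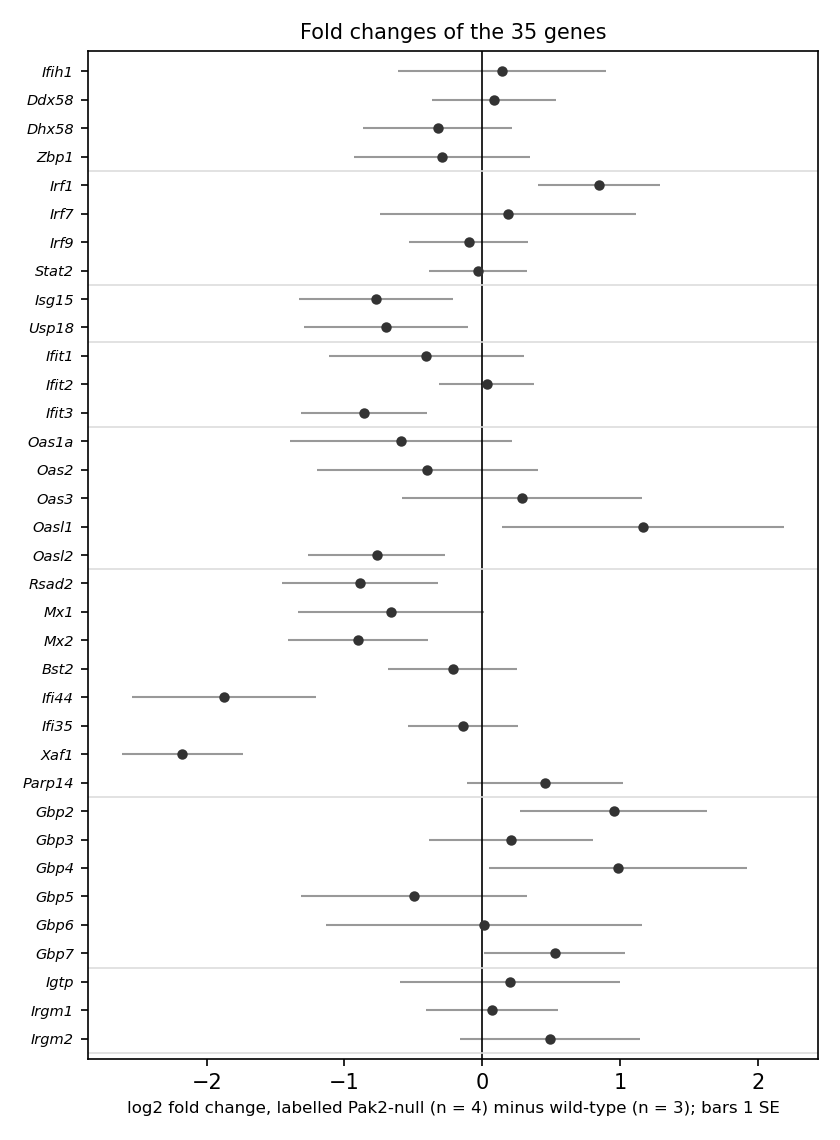
Log2 fold change of each of the 35 genes (x axis, labelled Pak2-null primary minus wild-type, n = 4 and 3), grouped by role with 1 gene per line; points are edgeR estimates and bars are 1 SE. Most bars cross 0, and Xaf1 (-2.18) and Ifi44 (-1.87) lie farthest to the left.

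The tumours labelled Pak2-null were spread far more widely than the wild-type tumours. The ratio of the highest to the lowest tumour was larger in the labelled Pak2-null group for 35 of 35 members, against 63.9% of the 14481 tested genes with no zero. Its median over the members was 6.71 in the labelled Pak2-null group and 1.59 in the wild-type group, against 2.14 and 1.77 over those genes. It ran from 2.31 (Ifit2) to 106 (Gbp6) in the labelled Pak2-null tumours and from 1.06 (Xaf1) to 3.32 (Gbp4) in the wild-type tumours. Since 4 tumours tend to span more than 3, each labelled Pak2-null tumour was also left out in turn, a check chosen after the data were seen. The count was then 32 without tumour 13 (background 53.2%), 34 without 14A (40.4%), 35 without 59 (59.6%) and 34 without 61 (56.5%). The members' median ratio was 2.60 without tumour 13 and 4.33 without 14A. The members moved together, with 33 of 35 lowest in tumour 13, so they are not independent observations. The group difference in spread itself was not put to a test.

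Tumour 13 had the lowest level of all 7 primary tumours in 33 of 35 members (94.3%), against 20.1% of all tested genes. The other 2 members, Ifit2 and Oasl1, were lowest in tumour 61 (background 6.3%). Tumour 14A was highest in 19 members (54.3%, background 24.9%) and tumour 59 in 6 (17.1%, background 6.21%), namely Gbp2, Gbp4, Gbp6, Gbp7, Igtp and Irgm1. Tumour 20 was highest in 7 members (background 10.3%), 19 in 2 (16.1%) and 127 in 1 (16.9%). The mean log2 CPM of the 35 genes was 4.84, 5.10 and 4.75 in wild-type tumours 19, 20 and 127. It was 2.80, 5.50, 4.99 and 4.10 in tumours 13, 14A, 59 and 61. All 3 wild-type tumours lay between tumours 61 and 14A, and the group means were 4.90 ± 0.18 (SD, n = 3) against 4.35 ± 1.18 (SD, n = 4).

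**Figure D2:**
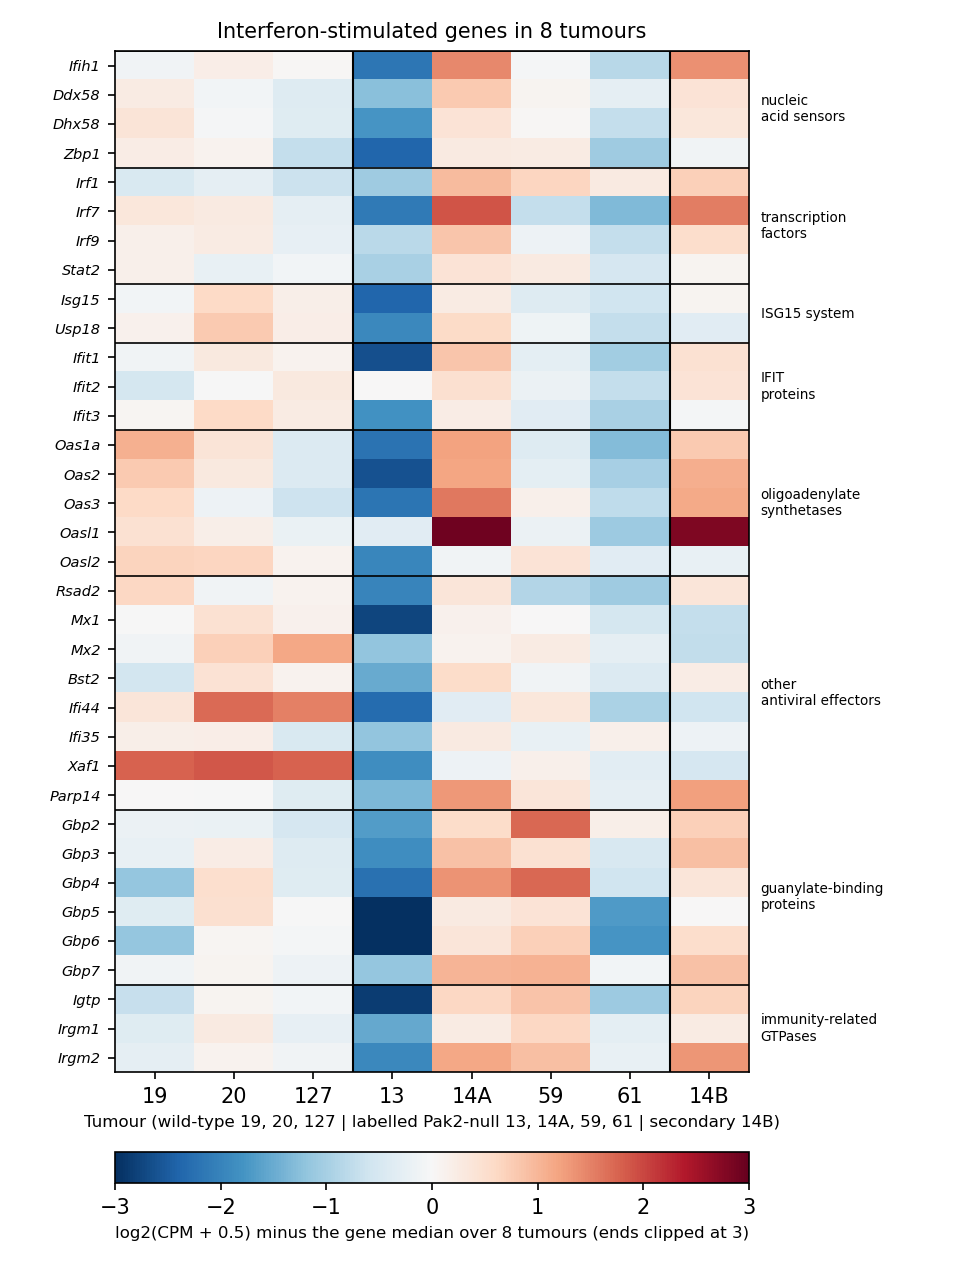
Each cell is 1 gene (rows, grouped by role) in 1 tumour (columns), coloured by log2(CPM + 0.5) minus the gene's median over the 8 tumours. Tumour 13 is blue for nearly every gene, tumours 14A and 14B are red for most sensors, transcription factors and oligoadenylate synthetases, and tumour 59 is reddest among the guanylate-binding proteins, while Xaf1 and Ifi44 are red in the wild-type columns.

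The nucleic acid sensors bind viral RNA or DNA in the cell and start the response that makes interferon. Ifih1 encodes MDA5, a sensor of long double-stranded RNA (chromosome 2, 62595798 to 62646255). It stood at 27.6, 34.1 and 30.5 CPM in wild-type tumours 19, 20 and 127, at 6.25, 82.0, 29.3 and 16.7 CPM in tumours 13, 14A, 59 and 61, and at 78.4 CPM in 14B. The wild-type values lay close together in the middle of a 13.1-fold span. Ddx58, which encodes the sensor RIG-I, stood at 66.9, 53.8 and 43.1 CPM in wild-type tumours, at 23.5, 97.8, 59.9 and 47.3 CPM in the labelled Pak2-null primaries and at 75.3 CPM in 14B. Dhx58 (the regulator LGP2) ranged from 10.7 to 18.4 CPM in wild-type and 3.72 to 18.6 CPM in labelled Pak2-null primaries, and Zbp1, a sensor of left-handed nucleic acid, from 17.1 to 32.7 and 5.02 to 34.2 CPM. For all 4 sensors tumour 13 was lowest and 14A highest, and the groups overlapped. Log2 fold changes were -0.32 to 0.14 and none passed the edgeR quasi-likelihood test after Benjamini-Hochberg adjustment (adjusted p from 0.837 to 0.956).

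The transcription factors carry the signal to DNA. Irf7, the factor that amplifies type I interferon production, varied widely: 96.5, 91.0 and 62.7 CPM in wild-type tumours 19, 20 and 127, 17.0, 282, 46.0 and 29.7 CPM in tumours 13, 14A, 59 and 61, and 218 CPM in 14B. In 3 of the 4 labelled Pak2-null primaries it was below every wild-type tumour, and in 14A it was above every one. Its log2 fold change of 0.19 (SE 0.93) became -1.41 without tumour 14A (edgeR quasi-likelihood, adjusted p = 0.143) and -0.0044 without wild-type tumour 127, so its sign rests on single tumours. Irf1, a factor induced directly by interferon gamma, stood at 45.6, 51.8 and 39.8 CPM in wild-type tumours, at 29.5, 122, 98.6 and 75.3 CPM in the labelled Pak2-null primaries and at 103 CPM in 14B. It lay above the wild-type range in 3 of those 4 tumours and below it in tumour 13, with a log2 fold change of 0.85 (SE 0.45) and adjusted p = 0.487 in edgeR (quasi-likelihood, Benjamini-Hochberg). Irf9 and Stat2, both parts of the complex that binds the ISRE, spanned 28.1 to 88.7 and 28.7 to 74.9 CPM in the labelled Pak2-null primaries and 41.6 to 58.8 and 48.7 to 62.6 CPM in wild-type tumours. Their log2 fold changes were -0.10 and -0.03.

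ISG15 is a ubiquitin-like protein that is attached to other proteins, and USP18 removes it and also damps receptor signalling. Isg15 (chromosome 4, 156199424 to 156200818, with the 3 overlapping ISRE matches shown above) stood at 22.9, 36.9 and 27.3 CPM in wild-type tumours, at 4.27, 28.7, 18.5 and 15.8 CPM in tumours 13, 14A, 59 and 61, and at 25.7 CPM in 14B. Only 14A among the labelled Pak2-null primaries reached the wild-type range. Isg15 is 95.2% identical over 63.8% of its transcript to another annotated gene that has no counts of its own here, so its count is uncertain. The log2 fold change was -0.77 (SE 0.56) for Isg15 and -0.70 (SE 0.60) for Usp18, with adjusted p of 0.608 and 0.665 in edgeR (quasi-likelihood, Benjamini-Hochberg).

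The IFIT proteins bind foreign RNA, alone or as partners of each other, and block its translation. Ifit1 stood at 24.9, 33.3 and 29.1 CPM in wild-type tumours, at 3.90, 48.2, 22.0 and 12.8 CPM in tumours 13, 14A, 59 and 61, and at 37.2 CPM in 14B. Ifit3 stood at 40.5, 59.5 and 46.6 CPM, at 10.8, 45.2, 30.8 and 19.7 CPM, and at 37.4 CPM in the same order, with log2 fold changes of -0.40 and -0.86. Ifit3 is 97.8% identical to Ifit3b over 97.4% of its transcript, so its count is uncertain. Ifit2 was the exception to the low level of tumour 13: it stood at 32.1 CPM there, inside the wild-type range of 21.9 to 39.3 CPM. Its log2 fold change was 0.03 and turned to -0.01 with library-size scaling alone. All 3 lie on chromosome 19, and in tumour 13 Ifit2 was higher than Ifit1 or Ifit3 in CPM and also per length.

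Active oligoadenylate synthetases make a messenger that activates RNase L, and Oasl1 encodes a protein of this group that acts otherwise. Oas1a stood at 49.9, 30.9 and 17.6 CPM in wild-type tumours, at 4.64, 54.5, 17.8 and 9.24 CPM in tumours 13, 14A, 59 and 61, and at 41.1 CPM in 14B. Oas2 and Oas3 were likewise lowest in 13 and highest in 14A among the primaries, at 4.03 and 61.6 CPM for Oas2 and 1.61 and 28.2 CPM for Oas3. Oasl1, which encodes an OAS-like protein that restrains Irf7 translation, stood at 13.9, 11.4 and 8.60 CPM in wild-type tumours, at 7.74, 79.2, 8.76 and 4.45 CPM in the labelled Pak2-null primaries and at 73.0 CPM in 14B. All tumours other than 14A and 14B lay at or below 13.9 CPM. Its log2 fold change of 1.17 (SE 1.02) became -0.67 without 14A. Oasl2, which neighbours Oasl1 on chromosome 5, was not high in these tumours: it stood at 34.1 CPM in 14A and 31.6 CPM in 14B, below the 39.7 to 58.7 CPM of the wild-type tumours. None of the 5 passed the edgeR quasi-likelihood test after Benjamini-Hochberg adjustment (adjusted p from 0.569 to 0.918). Oas1a is 97.6% identical to Oas1g over 98.7% of its transcript and its count is uncertain.

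**Figure D3:**
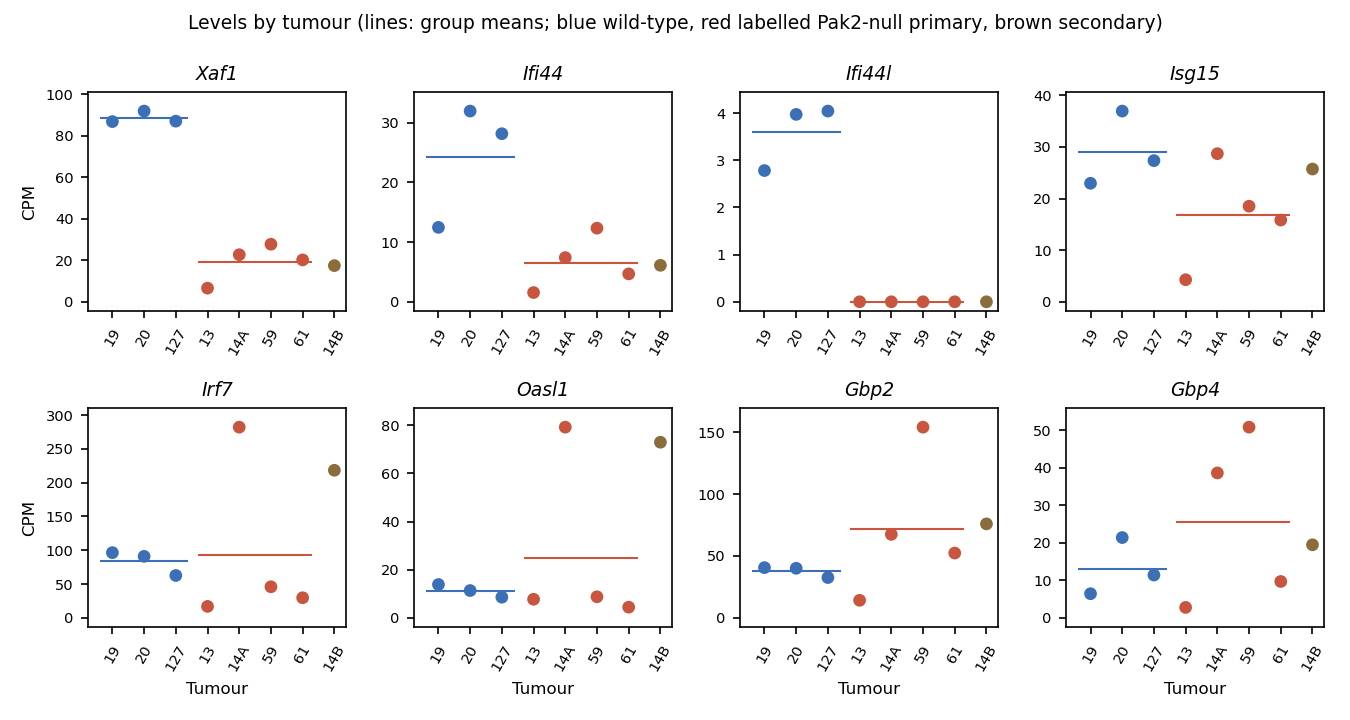
CPM (y axis, linear, a scale for each panel) of 7 members and of Ifi44l in each of the 8 tumours (x axis); lines are group means of the 3 wild-type and 4 labelled Pak2-null primary tumours. Xaf1, Ifi44 and Ifi44l separate the groups, Irf7 and Oasl1 are high in 14A and 14B alone, and Gbp2 and Gbp4 are highest in tumour 59.

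Of the other antiviral effectors, Xaf1 and Ifi44 were the members with a separation between groups. Xaf1 encodes a protein that antagonises the apoptosis inhibitor XIAP (chromosome 11, 72301629 to 72313733). It stood at 86.7, 91.8 and 87.0 CPM in wild-type tumours 19, 20 and 127, at 6.56, 22.7, 27.7 and 20.2 CPM in tumours 13, 14A, 59 and 61, and at 17.4 CPM in 14B. The wild-type values were nearly equal, and the highest labelled Pak2-null value was far below the lowest of them. The log2 fold change was -2.18 (SE 0.44), with an edgeR quasi-likelihood p of 0.00142 and a Benjamini-Hochberg adjusted p of 0.117. With 1 tumour left out at a time it stayed between -2.42 and -1.89, with adjusted p from 0.109 to 0.340. DESeq2 gave an adjusted p of 4.35e-04, limma-voom with quality weights 0.0281, and edgeR with tumour 14B added 0.0482 (1.23% of all genes called), a fit that counts 14A and 14B as separate replicates although they may share an animal. Over all 20 alternatives the adjusted p ran from 4.35e-04 to 0.340.

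Xaf1 was among the 33 members lowest in tumour 13, but its level against the members' mean differed between the groups. Relative to the mean log2 CPM of the 35 genes in the same tumour, it was higher by 1.60, 1.42 and 1.69 in wild-type tumours 19, 20 and 127. In tumours 13, 14A, 59 and 61 the difference was -0.06, -0.99, -0.19 and 0.24, and in 14B it was -1.11. So in 14A, where the 35 genes together were highest, Xaf1 was below their mean. This was not particular to Xaf1: Oasl2 was above the mean by 0.56 to 1.04 in wild-type tumours and at -0.41 in 14A. Some markers of host tissue stood lower in the labelled Pak2-null primaries, and others did not. All 9 skeletal muscle markers, with the sums given above, were lower in the labelled Pak2-null primaries at an unadjusted p below 0.05, as were 4 of 4 red cell markers (176 to 2878 against 14.3 to 106 CPM) and 2 of 5 adipocyte markers (116 to 777 against 26.4 to 174 CPM), and 0 of these passed with adjustment in edgeR. Of all tested genes 8.55% were lower at that unadjusted threshold. In 14B the red cell markers summed to 775 CPM, inside the wild-type range. Exocrine pancreas markers were high in 14A (21426 CPM) and 14B (160680 CPM) alone. They summed to 41.3, 0.432 and 0.231 CPM in tumours 13, 59 and 61, against at most 5.78 CPM in wild-type tumours. The part of host tissue in the result was not tested.

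Ifi44, which encodes an interferon-induced antiviral protein, stood at 12.5, 32.0 and 28.2 CPM in wild-type tumours 19, 20 and 127. Its values were 1.55, 7.40, 12.3 and 4.68 CPM in tumours 13, 14A, 59 and 61 and 6.12 CPM in 14B. The groups were separated only by the small gap between tumour 59 and tumour 19. The log2 fold change was -1.87 (SE 0.67), with an edgeR quasi-likelihood p of 0.0252 and a Benjamini-Hochberg adjusted p of 0.292. Its neighbour Ifi44l, no member but the gene with the lowest p among the interferon-stimulated genes outside the list, starts 9694 bases beyond the end of Ifi44 on chromosome 3 (151759641 to 151762906). Ifi44l stood at 2.78, 3.97 and 4.04 CPM in the wild-type tumours and had 0 counts in all 4 labelled Pak2-null primaries and in 14B. The lowest wild-type tumour was set against the highest floor of 3 counts in a labelled Pak2-null primary. On that approximate bound, which leaves out counting error in the wild-type value, Ifi44l was at least 14.97-fold lower. Its Benjamini-Hochberg adjusted p was 0.0823 in the edgeR quasi-likelihood test. The part of the same host tissue in these 2 genes was not tested.

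The remaining 6 effectors overlapped between the groups. Bst2 (tetherin, which holds budding virus at the cell surface) spanned 57.6 to 114 CPM in wild-type tumours and 29.5 to 124 CPM in labelled Pak2-null primaries. Rsad2 (viperin) spanned 15.5 to 25.8 and 3.84 to 21.7 CPM, and Mx1, a dynamin-like GTPase that traps viral components, 11.3 to 15.8 and 1.24 to 12.5 CPM. Mx2, listed as a polymorphic pseudogene, spanned 4.96 to 12.8 and 2.11 to 6.54 CPM. It is 95.3% identical to Mx1 over 34.0% of its transcript. Parp14, an ADP-ribosyltransferase, reached 164 CPM in 14A and 156 CPM in 14B, against 50.8 to 66.3 CPM in wild-type tumours. Ifi35, whose exons share 290 bases with a gene on the opposite strand, spanned 13.3 to 21.1 and 7.74 to 22.2 CPM. Log2 fold changes of these 6 ran from -0.90 (Mx2) to 0.46 (Parp14), with 5 below 0.

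The guanylate-binding proteins are GTPases that coat and break pathogen vacuoles and are strongly induced by interferon gamma. Gbp2 stood at 40.6, 40.0 and 32.5 CPM in wild-type tumours 19, 20 and 127, at 14.2, 67.4, 154 and 52.3 CPM in tumours 13, 14A, 59 and 61, and at 75.9 CPM in 14B. It exceeded every wild-type tumour in 3 labelled Pak2-null primaries and was lowest in tumour 13. Gbp4 stood at 6.44, 21.4 and 11.4 CPM, at 2.79, 38.6, 50.9 and 9.70 CPM, and at 19.5 CPM in the same order. Gbp7, with 1 ISRE and 2 GAS matches, stood at 42.7, 48.7 and 41.4 CPM, at 20.4, 93.4, 94.5 and 43.1 CPM, and at 84.4 CPM. Tumour 59 was above 14A in 5 of the 6 genes, in Gbp7 only barely, and below it in Gbp3 (47.9 against 64.5 CPM), whereas it was below 14A in the 4 sensors and in every synthetase but Oasl2. The log2 fold change was above 0 for 5 of the 6 (Gbp2 0.95, Gbp4 0.98, Gbp7 0.53, Gbp3 0.21 and Gbp6 0.01) and below 0 for Gbp5 (-0.50). None passed the edgeR quasi-likelihood test after Benjamini-Hochberg adjustment (adjusted p from 0.601 to 0.997), and the log2 fold change of Gbp2 was 0.25 without tumour 59.

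Gbp5 and Gbp6 are uncertain as genes. The table's Gbp5 entry (chromosome 3, 142496934 to 142619179) carries the identifier of Gbp2b in the GENCODE M21 annotation and spans both loci. Its Gbp6 entry (chromosome 5, 105215699 to 105293699) covers the Gbp6 and Gbp10 loci of M21, with 99.8% and 99.2% identity to their transcripts. The Gbp5 entry stood at 3.34 CPM in tumour 13 and 11.0 CPM in 61, against 28.9 to 51.8 CPM in the other 5 primaries. The Gbp6 entry was at 0.310 CPM (5 counts) in tumour 13 and at 32.8 CPM in 59.

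The immunity-related GTPases guard vacuole membranes and are induced by interferon gamma in mice. Igtp stood at 20.2, 34.7 and 31.3 CPM in wild-type tumours, at 4.15, 50.5, 60.4 and 15.2 CPM in tumours 13, 14A, 59 and 61, and at 52.7 CPM in 14B. Irgm2, which carries the same order of GAS and ISRE as Igtp, stood at 31.4, 40.9 and 35.4 CPM, at 9.60, 85.9, 71.0 and 32.5 CPM, and at 95.7 CPM. In both genes 14A, 59 and 14B were above and 13 was below all wild-type tumours. Irgm1 spanned 43.4 to 67.2 CPM in wild-type tumours and 18.9 to 86.7 CPM in labelled Pak2-null primaries. Log2 fold changes were 0.20, 0.49 and 0.07 for Igtp, Irgm2 and Irgm1, with adjusted p from 0.791 to 0.966 in edgeR (quasi-likelihood, Benjamini-Hochberg). Igtp and Irgm2 share 162 bases of exon on the same strand, so a small part of their counts cannot be told apart.

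The roles thus differed in which labelled Pak2-null tumour was highest. The mean log2 CPM of the oligoadenylate synthetases was lower in tumour 59 than in 14A by a difference of -1.44, and that of the transcription factors by -1.01. For the guanylate-binding proteins and the immunity-related GTPases the same difference was 0.28 and 0.12. Tumour 13 was the lowest of the 7 primaries in the mean of every role, and 14A exceeded it by 2.04 (IFIT proteins) to 3.43 (guanylate-binding proteins). These differences between single tumours have no replicate and no test.

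**Figure D4:**
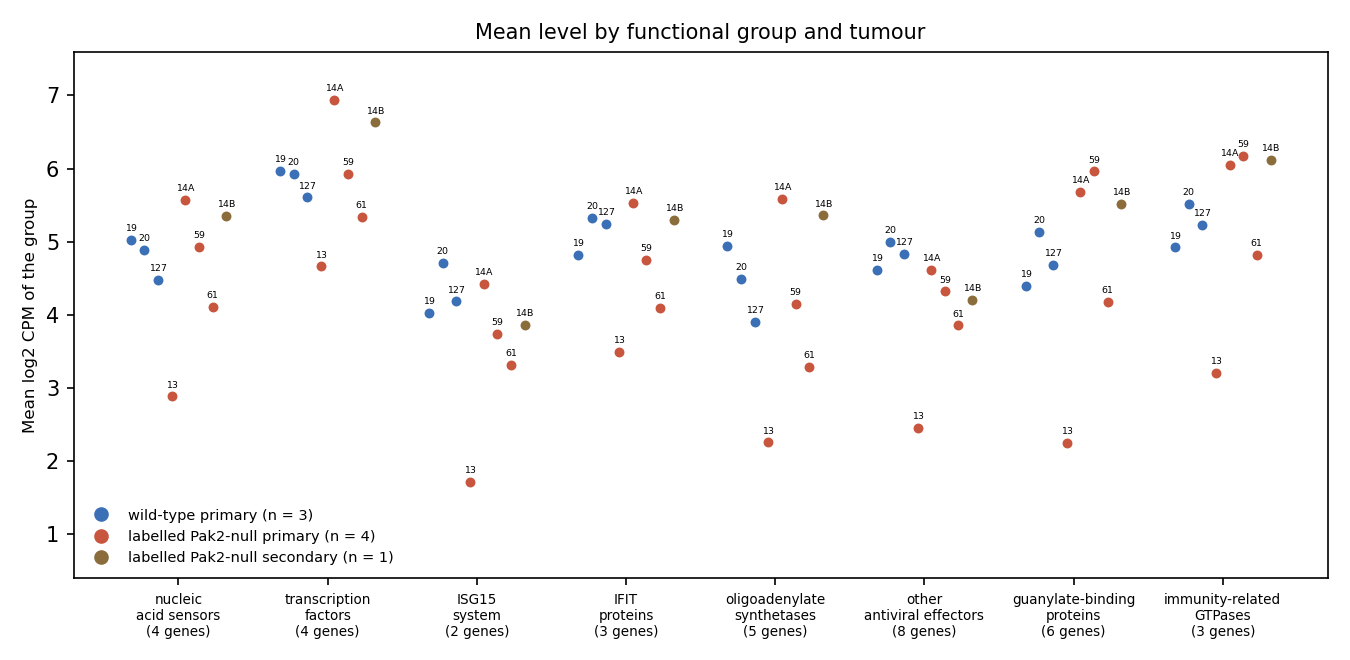
Mean log2 CPM (y axis) of the genes of each role (x axis) in each tumour, 1 labelled point per tumour. Tumour 13 is lowest in all 8 roles, and tumour 59 stands above 14A for the guanylate-binding proteins and immunity-related GTPases and below it for the other 6.

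Tumour 14B lay within the range of the 4 labelled Pak2-null primaries for 33 of 35 members and above it for 2, Gbp3 and Irgm2. Of those 4 tumours, 14A was the nearest in level for 25 members. The log2 CPM of 14B minus 14A had a median of -0.26 and was below 0 for 30 members. It ran from -0.98 (Gbp4) to 0.18 (Gbp6), so all 35 members stayed within 1 log2 unit. With 1 secondary tumour there is no test. Shares of all tested genes were not computed for these counts, so the nearness to 14A cannot be called particular to the members. Pan-leukocyte markers were nearly as high in 14B as in 14A, as given above, whereas T cell markers summed to 69.9 CPM in 14B and 458 CPM in 14A.

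Levels can be compared between genes only per length. As counts scaled to library size and to the table's gene length (RPKM), medians over the 8 tumours ran from 1.95 (Oas3), 2.18 (Mx2) and 2.43 (Ifi44) to 34.4 (Irf7) and 111 (Bst2). Isg15 (32.2) and Irf1 (29.7) followed Irf7. Bst2 was the highest of the 35 in all 8 tumours. Irf7 spanned 7.58 to 126 over the 8 tumours, which covers the medians of Isg15 and Irf1, so these neighbours do not differ beyond their spread.

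The pathway above the members was transcribed, while its ligands were hardly seen. Of 21 interferon genes 0 passed the filter on low counts and 18 had 0 counts in all 8 tumours. Ifnb1 had at most 2 counts in any tumour. Ifng, which encodes interferon gamma, stood at 0.139, 0.372 and 0.578 CPM in wild-type tumours, at 0, 0.463, 0.987 and 0 CPM in tumours 13, 14A, 59 and 61, and at 0.311 CPM in 14B. Tumour 59 was highest with 16 counts, and the approximate bound for the counts of 0 was 0.186 CPM in tumour 13 and 0.173 CPM in 61. Transcripts made briefly or in few cells would not be detectable at this depth.

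Of 9 interferon receptor and JAK kinase genes, all were tested and 0 passed the edgeR quasi-likelihood test after Benjamini-Hochberg adjustment, with 0 at an unadjusted p below 0.05. All 9 log2 fold changes were above 0 (background 54.5%), with a median of 0.44. Ifnar1, a chain of the type I receptor, stood at 97.6 to 157 CPM in wild-type tumours and was highest of the primaries in tumour 13, at 176 CPM. Ifngr1, a chain of the interferon gamma receptor, spanned 113 to 130 CPM in wild-type and 111 to 198 CPM in labelled Pak2-null primaries. Tumour 13 was the lowest primary for 1 of the 9 (background 20.1%).

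Of the 16 genes that lead to interferon production, all were tested and 0 passed. Above 0 were 14 (background 54.5%), and tumour 13 was lowest in 2 (background 20.1%). Mb21d1, which encodes the DNA sensor cGAS, had the lowest p of them (log2 fold change 0.99, SE 0.45, adjusted p = 0.418 in edgeR (quasi-likelihood, Benjamini-Hochberg)). Of 13 negative regulators 12 were tested and 0 passed. The pattern of tumours returned in MHC class I and antigen processing, where 0 of 13 passed and 13 were above 0 (background 54.5%). Tumour 13 was lowest in 11 of them (background 20.1%) and 14A highest in 13 (background 24.9%). Nlrc5, the class I transactivator, stood at 24.0, 30.4 and 28.1 CPM in wild-type tumours, at 5.39, 97.2, 71.0 and 20.2 CPM in tumours 13, 14A, 59 and 61, and at 59.4 CPM in 14B. B2m, the light chain of class I molecules, spanned 669 to 1061 and 529 to 2413 CPM, with 13 lowest and 14A highest.

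Other interferon-stimulated genes, chosen as further known targets, were set beside the members. Of 61 tested, 0 passed the edgeR quasi-likelihood test after Benjamini-Hochberg adjustment, and the median log2 fold change was 0.18. At an unadjusted p below 0.05, 1 was higher (background 4.39%) and 3 were lower (background 8.55%). Tumour 13 was lowest in 42 (background 20.1%) and 14A highest in 41 (background 24.9%). The 4 with the lowest p were Ifi44l, Trim30d, Isg20 and Ifi27l2a. Trim30d stood at 10.5, 15.3 and 12.9 CPM in wild-type tumours and 32.3, 38.9, 30.1 and 18.8 CPM in tumours 13, 14A, 59 and 61, so it was not low in tumour 13. Isg20, an exonuclease, spanned 17.3 to 28.7 and 8.46 to 12.6 CPM without overlap.

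Leukocyte markers moved with the members in part. Of all tested genes, 20.1% were lowest in tumour 13 and 24.9% highest in 14A among the primaries. T cell markers (10 genes) summed to 37.8, 90.5 and 36.3 CPM in wild-type tumours, to 5.64, 458, 160 and 60.9 CPM in tumours 13, 14A, 59 and 61, and to 69.9 CPM in 14B, with tumour 13 lowest in 10 of 10 and 14A highest in 10 of 10. B cell markers (5 genes) summed to 4.09 CPM in tumour 13 and 543 CPM in 14A, against 17.5 to 130 CPM in wild-type tumours, again with 13 lowest and 14A highest in 5 of 5. Natural killer cell markers (8 genes) summed to 8.90 to 16.8 CPM in wild-type tumours and to 12.4, 91.5, 74.6 and 31.1 CPM in tumours 13, 14A, 59 and 61. All 8 were above 0 (background 54.5%), 4 of them at an unadjusted p below 0.05 (background 4.39%) and 0 with adjustment. Dendritic cell markers (8 genes) summed to 28.1 CPM in tumour 13, below the 44.4 to 120 CPM of the other primaries. Yet tumour 13 was lowest in only 1 of the 7 tested, so the low sum does not hold for the list gene by gene. Neutrophil markers (5 genes) summed to 19.4 CPM there, just below the 19.5 CPM of tumour 61, the next lowest, with tumour 13 lowest in 3 of 4 tested. Tumour 13 was not lowest in the remaining leukocyte lists: pan-leukocyte markers summed to 735 CPM there, within the 498 to 6316 CPM of the other primaries, and macrophage and monocyte markers (11 genes) to 4766 CPM, within 1871 to 10518 CPM. The part of leukocytes in the levels of the members was not tested.

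**Figure D5:**
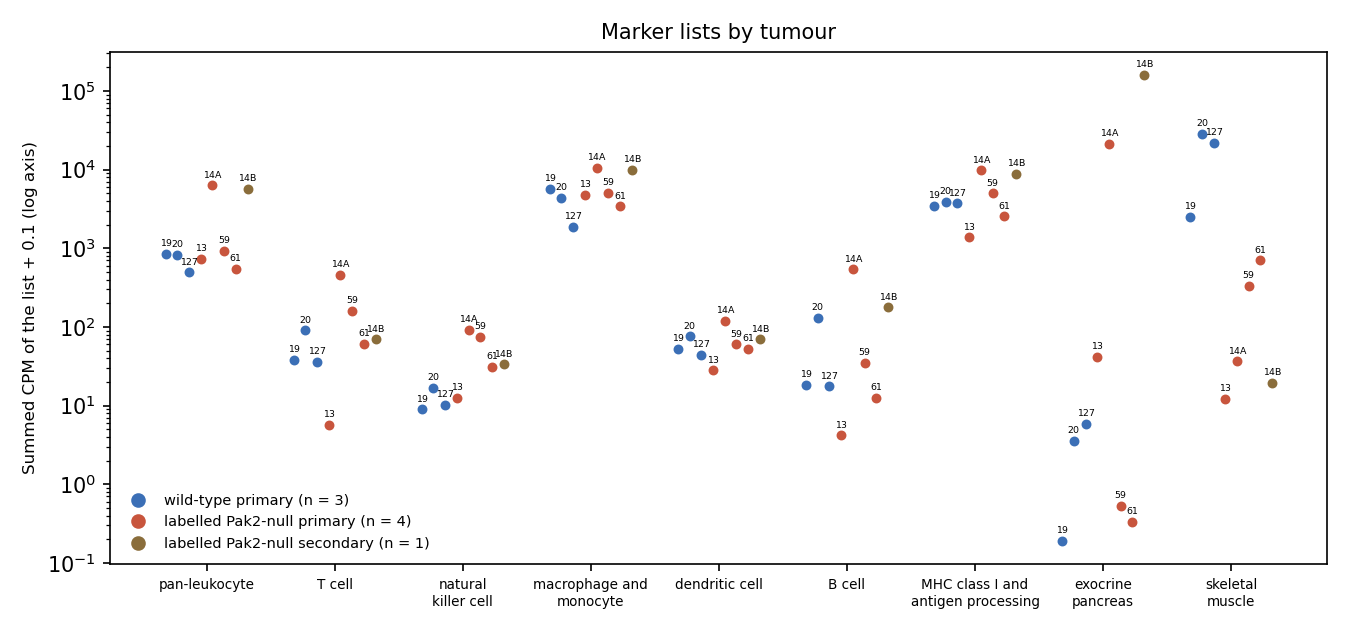
Summed CPM of each marker list plus 0.1 (log y axis) in each tumour, 1 labelled point per tumour. T cell, B cell and MHC class I sums are lowest in tumour 13 and highest in 14A, while the pan-leukocyte and macrophage sums of tumour 13 lie among those of the other tumours.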

How the data were processed

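Raw counts of reads per gene were deposited by the authors, 1 column for each of 8 tumours (0 count columns of other samples, 0 entries without a gene name). STAR, HTSeq, GRCm38 and mm10 are named in the submitters' processing notes. Versions, annotation, strand setting and filters are not given in the sources available, so genes overlapping on opposite strands cannot be told apart. The gene length column the authors deposited served only to compare levels between genes.

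The model was fitted by edgeR 4.0.16 (R 4.3.3, TMM, filterByExpr with a minimum count of 10 and a minimum total of 15) for 3 wild-type and 4 labelled Pak2-null primary tumours, without covariates. Differences were tested with the quasi-likelihood test and Benjamini-Hochberg adjustment over 15412 genes at 0.05, after the script was tested on simulated data. The SE is the log2 fold change over the root of F. CPM (counts scaled to library size) used tested-gene library sizes and TMM factors over 8 tumours, and log2 CPM a prior count of 2. Floors of 3 counts cover counting error only. Copies (at least 95% identity over 200 bases) were found with BLAST 2.17.0. DESeq2 1.42.0, limma 3.58.1, other scalings, filters and left-out tumours were alternatives. All 35 members are named by role, and of every other list up to 4 tested genes with the lowest p, besides Ifng, Ifnb1, Ifnar1, Ifngr1, Nlrc5, B2m, Ptprc, Pak2, Nf2, Cdkn2a, Xist and Ddx3y, which the rule allows. A gene of the pathway lists is not reported here. Calb2 and Muc16 were named after their values were seen. The members and lists were chosen with earlier results of these data known.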

Additional observations from a re-analysis of the deposited data

How the results depend on the processing

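Under 20 alternatives none of the 35 genes came to an adjusted p of 0.05 or less except Xaf1, in 3 of them. The number of members called was 1 rather than 0 with DESeq2, with limma-voom with quality weights and with tumour 14B added to the labelled Pak2-null group. Summing near-identical copies, chosen after seeing the data, changed no call. Of 700 values for single members, 641 kept direction and side of the threshold, 3 passed it (Xaf1) and 56 changed sign, in 16 members. The other 19 kept their direction, 14 below 0 and 5 above 0 in every fit. With quality weights 6 of 35 members were lower at an unadjusted p below 0.05 (background 14.5% of all tested genes). That count ran from 1 to 6 with 1 tumour left out: 1 without 20, 127 or 61 (background 6.6%, 6.52% and 8.36%) and 6 without 14A (10.1%). The count of higher members ran from 0 to 2, with 2 without 13 (3.76%). The members' median log2 fold change ran from -0.67 without 14A to 0.08 without 13. The number of members with the wider ratio in labelled Pak2-null tumours ran from 32 to 35.

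The log2 fold changes that changed sign are as follows, by setting. With limma-voom the value was -0.38 for Ifih1, -0.0654 for Ddx58, -0.66 for Irf7, -0.29 for Oas3, -0.0852 for Gbp3, -1.11 for Gbp6, -0.34 for Igtp and -0.10 for Irgm1. With limma-voom with quality weights the value was -0.56 for Ifih1, -1.03 for Irf7, 0.0704 for Stat2, -0.28 for Ifit2, -0.13 for Oas3, -0.37 for Oasl1, -0.0457 for Gbp3, -0.77 for Gbp6 and -0.13 for Igtp. With tumour 14B in place of 14A the value was -0.0858 for Ddx58, -0.10 for Irf7 and -0.0135 for Ifit2. With tumour 14B added to the Pak2-null group the value was 0.0266 for Irf9 and 0.0073 for Stat2. With upper quartile factors the value was -0.0002 for Ifit2. With library size only the value was -0.0111 for Ifit2. With all 3 groups in the fit the value was -0.008 for Gbp6. With 1 tumour left out at a time, the lowest and highest values were -0.80 to 0.49 for Ifih1, -0.31 to 0.34 for Ddx58, -0.61 to 0.0367 for Zbp1, -1.41 to 0.53 for Irf7, -0.58 to 0.0848 for Irf9, -0.24 to 0.17 for Stat2, -0.19 to 0.21 for Ifit2, -0.71 to 0.69 for Oas3, -0.67 to 1.52 for Oasl1, -0.59 to 0.0468 for Bst2, -0.34 to 0.0937 for Ifi35, -0.12 to 0.75 for Parp14, -0.22 to 0.53 for Gbp3, -0.62 to 0.42 for Gbp6, -0.30 to 0.57 for Igtp and -0.27 to 0.35 for Irgm1.

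No paired analysis was possible because the wild-type and Pak2-null primary groups share no tumour number, and 14A and 14B are the only pair that shares one. The median difference of 14B from 14A was -0.24 with median-of-ratios factors and -0.45 with library size only. The precision is limited by 3 and 4 tumours and, for low members, by depth: the lowest count of a member was 5 (Gbp6 in tumour 13). Alignment choices of the authors could not be varied. The genes most correlated with the members were not computed.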
